A study of Mus musculus with 16 samples.

Results

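Interferon regulatory factors are the DNA-binding proteins that share a helix-turn-helix domain recognising GAAA repeats, and 8 of them are described here in CD8 T cells, namely Irf1, Irf2, Irf3, Irf4, Irf5, Irf7, Irf8 and Irf9. They were found as the non-control probes that the array files name with one of these symbols, or with Isgf3g, the older name of Irf9. This gave 12 of the 41174 non-control probes. Irf1, Irf3, Irf8 and Irf9 had a pair of probes each, and the other genes had a single probe. All 12 probes were well above background on all 16 arrays, so none was lost to the filter on dim probes, and the 8 genes stand among 18411 genes tested.

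The cells came from 7-week-old female mice of the C57BL/6N strain and were CD8+Thy1.2+ T cells sorted by flow cytometry. Memory phenotype cells (CD44hi) and naive cells (CD44lo) were cultured for 4 h, either in medium alone or with 10 ng/mL of PMA plus ionomycin (500 ng/mL). PMA activates protein kinase C and ionomycin lets calcium into the cell, so together they stand in for a signal through the T cell receptor. The 4 groups, memory stimulated, naive stimulated, memory resting and naive resting, had 4 arrays each, and the sort and culture were repeated on 4 occasions. No genotype other than the strain is given. CD44hi cells of unimmunised mice are a phenotype and need not have met a foreign antigen, and the resting cells had also spent the culture time outside the animal.

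The family is best known from the defence against viruses. IRF3 and IRF7 are kept in the cytoplasm until a sensor of viral nucleic acid sets off their phosphorylation, and then switch on type I interferon genes. IRF9 joins STAT proteins to read the interferon signal out at interferon-stimulated response elements, IRF1 and IRF2 act there as activator and antagonist, and IRF4 and IRF8 bind weakly on their own and are recruited by partners such as BATF-JUN or PU.1. In T cells IRF4 is induced through the antigen receptor and is needed for expansion and effector differentiation of CD8 T cells.

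Promoter sequence is shown for the 3 members in which a STAT binding pattern was found, since interferon signals reach their targets through such patterns. The RefSeq windows of build GRCm38.p6, from 250 bases before to 50 after the start, were searched on both strands for the core of an interferon-stimulated response element (GAAA, any 2 bases, GAAA), TTCNNNGAA (GAS, the pattern bound by STAT dimers, which reads the same on both strands), kappaB (GGG, any 5 bases, CC), GGAAA (NFAT core) and TGANTCA (AP-1). GAS and element matches are in capitals below. A GGAAA match overlaps the GAS match of Irf1, the first GAS match of Irf8 and that of Irf2.
Irf1, chr11:53769904-53770013, + strand, from -110: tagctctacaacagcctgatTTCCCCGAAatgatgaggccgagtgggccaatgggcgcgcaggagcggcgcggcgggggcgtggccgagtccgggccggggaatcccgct
Irf8, chr8:120736168-120736227, + strand, from -190: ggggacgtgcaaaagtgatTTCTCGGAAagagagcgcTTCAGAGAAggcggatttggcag
Irf2, chr8:46739495-46739544, + strand, from -250: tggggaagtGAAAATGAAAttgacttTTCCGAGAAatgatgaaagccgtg

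The 8 genes have 11 windows in that table. GAS was present in 3 of the 11, against 8.30% of 32851 windows of the same length. The element core was present in 1 of the 11, that of Irf2 at -241, against 3.44% of all windows. The kappaB pattern, held by 50.8% of all windows, was found in 8 of the 11, and the Irf1 window holds it at -196, -195, -34 and -13. The NFAT core was found in 7 of the 11, against 61.3% of all windows. AP-1, held by 7.81% of all windows, was found in none of the 11. A match describes letters in a window and is not a binding site.

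The measured stretch of each transcript is the probe of 60 bases. The files place the probes on build mm7. In 3 of the 12 the placement spans more genome than the probe is long, so the probe crosses at least 1 intron, and these are shown because such a probe reads spliced RNA.
Irf1, chr11:53730701-53730846, + strand, 146 bases of genome: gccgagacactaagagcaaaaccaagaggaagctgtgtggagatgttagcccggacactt
Irf7, chr7:137682028-137682378, - strand, 351 bases of genome: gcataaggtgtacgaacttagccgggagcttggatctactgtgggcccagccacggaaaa
Irf9, chr14:50473491-50473701, + strand, 211 bases of genome: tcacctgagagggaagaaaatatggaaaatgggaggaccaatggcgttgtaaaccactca

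The other 9 probes are placed as 1 block of 60 bases. The exon and UTR annotation of the probes was not used here.

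Levels are given as log2 signal after subtraction of the array's 75th percentile, so that 0 is that percentile and 1 unit is a doubling. They compare 1 probe across arrays, not 1 gene with another. A gene with a pair of probes is represented by the brighter probe. Changes are given with the standard error (SE) of a limma fit over all 16 arrays, and a gene passed at a Benjamini-Hochberg adjusted p under 0.05 over all genes tested.

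After stimulation 3 of the 8 genes rose and 4 fell in memory cells, and 2 rose and 5 fell in naive cells. Irf3 is 1 of the 3 that rose in memory cells, and its direction there turned with the scaling. These counts stand against a very wide response of the cells: 70.9% of all genes passed in the memory response (30.2% higher, 40.7% lower), and 68.8% in the naive response (36.8% higher, 32.0% lower). The share of members that passed is thus near that of all genes, and the sizes and directions carry what can be said of them. The median change of the 8 was -0.57 in memory cells and -0.68 in naive cells, against -0.21 and 0.11 over all genes. Between the cell types, 1 member was higher and 2 were lower in memory than in naive cells after stimulation, where 24.1% of all genes passed (9.96% higher, 14.2% lower). At rest 2 were higher and 2 lower in memory cells, where 21.4% of all genes passed (13.9% higher, 7.49% lower). The response itself differed between memory and naive cells for 3 members, against 19.9% of all genes (5.73% higher, 14.2% lower).

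**Figure D1:**
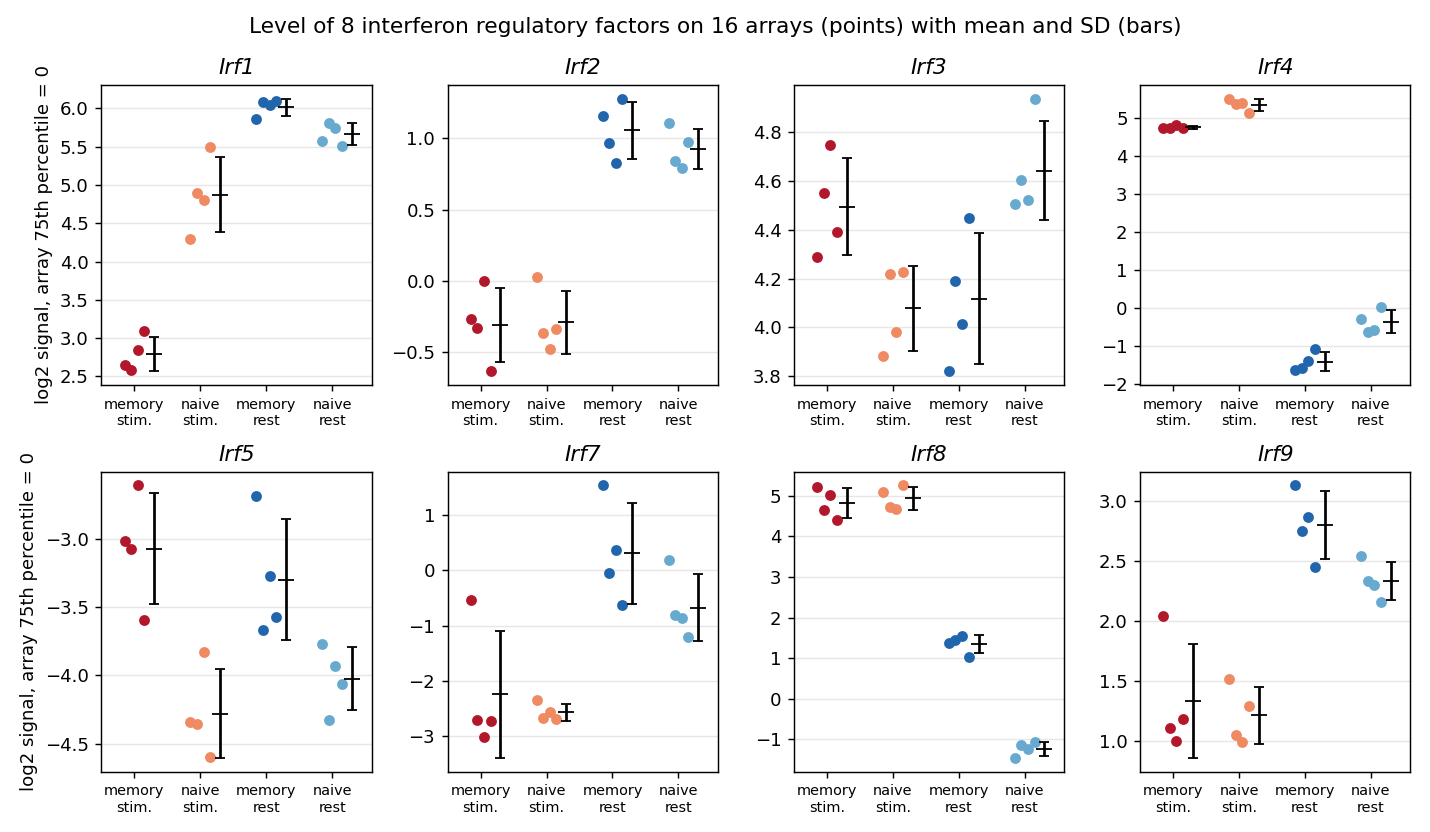
Level of each member on the 16 arrays (points; log2 signal with the array's 75th percentile at 0; each panel has its own range), by group, with the group mean and SD as bars beside the points (n = 4). Irf4 and Irf8 lie far above their resting levels on all 8 stimulated arrays, Irf1 is lowest in memory stimulated cells, and 1 memory stimulated array stands above the other 3 for Irf7.

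Irf4 and Irf8 gave the largest changes of the family, both upward in both cell types. Irf4, the factor that the antigen receptor induces in T cells (probe at mm7 chr13:30132137-30132196), stood at 4.75, 4.74, 4.82 and 4.73 in memory stimulated cells, against -1.63, -1.58, -1.40 and -1.08 in memory resting cells. In naive stimulated cells it stood at 5.52, 5.38, 5.42 and 5.14, against -0.29, -0.63, -0.57 and 0.03 in naive resting cells. No stimulated array came near a resting one, and the memory arrays lay below the naive arrays under both conditions. The change was 6.18 ± 0.15 (SE) in memory cells, a 72.7-fold rise (adjusted p = 1.24e-13), and 5.73 ± 0.15 in naive cells, a 53.1-fold rise (adjusted p = 2.31e-13). Among the 18411 genes these changes ranked 31 and 32 from the top.

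Irf4 was lower in memory than in naive cells both after stimulation and at rest. The difference was -0.60 ± 0.15 after stimulation (adjusted p = 0.0101), where memory cells had 4.76 ± 0.04 and naive cells 5.36 ± 0.16 (SD, n = 4 each). At rest it was -1.06 ± 0.15 (adjusted p = 0.000145), with -1.42 ± 0.25 in memory cells and -0.37 ± 0.30 in naive cells. Both calls were lost under the planned normexp background correction, at -1.01 after stimulation and -0.90 at rest, and their adjusted p over all settings run was 0.00422 to 0.0642 and 7.79e-05 to 0.113. The memory and naive responses differed by 0.45 ± 0.22, which did not pass (adjusted p = 0.160, 95% interval -0.01 to 0.92). The order of levels was therefore naive stimulated, memory stimulated, naive resting and memory resting, with no overlap between neighbours in that order.

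Irf8 is best known as the factor that directs the development of dendritic cells and of monocytes and shapes B cells, and it is also induced in activated T cells. Its brighter probe (mm7 chr8:119391398-119391457) stood at 5.23, 4.65, 5.03 and 4.4 in memory stimulated cells, against 1.36, 1.45, 1.54 and 1.03 in memory resting cells. Naive stimulated cells had it at 5.11, 4.72, 4.67 and 5.26, against -1.47, -1.15, -1.25 and -1.06 in naive resting cells. Stimulated arrays of both cell types shared 1 range, whereas the resting memory arrays all lay above the resting naive ones. The rise was 3.48 ± 0.19 in memory cells (11.2-fold, adjusted p = 2.86e-10) and 6.17 ± 0.19 in naive cells (72.1-fold, adjusted p = 7.86e-13). It ranked 277 from the top in memory cells and 18 in naive cells.

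The response of Irf8 was smaller in memory cells by 2.69 units (memory response minus naive response -2.69 ± 0.27, adjusted p = 5.88e-06). The resting difference was close to this in size, with 1.35 ± 0.22 in memory cells and -1.23 ± 0.17 in naive cells (SD, n = 4 each), a difference of 2.58 ± 0.19 or 5.97-fold (adjusted p = 1.29e-07). After stimulation memory cells had 4.83 ± 0.37 and naive cells 4.94 ± 0.29, a difference of -0.11 ± 0.19 that did not pass (adjusted p = 0.713, 95% interval -0.51 to 0.29). In bulk RNA, fewer cells of a type and less RNA per cell cannot be told apart. Because each group was hybridised on a slide of its own, an effect of the slide cannot be told apart from that of the group.

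Markers of other cell types were measured beside Irf8. The list for dendritic cells had 9 of 12 genes tested, of which 7 were higher and 0 lower in memory than in naive resting cells. The summed level of the 9, in multiples of the array's 75th percentile, was 5.72 to 10.4 in memory resting cells and 2.07 to 8.67 in naive resting cells. The 8.67 is naive resting array 4, and the other 3 naive resting arrays had 2.07, 2.62 and 2.83, below all memory resting arrays. Within the list, Itgax, H2-Aa and H2-Ab1 were higher in memory resting cells by 2.50, 1.98 and 1.71. Clec9a, Siglech and Cd209a did not pass the filter on dim probes in any group. Of 13 genes for monocytes, macrophages or neutrophils 5 were higher and 0 lower, with a sum of 14.8 to 22.6 in memory resting cells and 8.69 to 14.5 in naive resting cells. Of 5 B cell genes tested 1 was higher, with a sum of 1.32 to 1.58 in memory resting cells and 1.61 to 2.16 in naive resting cells, and Pax5, Ebf1 and Blk did not pass the filter. Of 5 NK cell genes 4 were higher, with a sum of 17.2 to 19.5 in memory resting cells and 5.83 to 10.3 in naive resting cells. Nkg7 and Eomes made the largest parts of the memory resting sum, with mean levels of 3.71 and 2.17. Ncr1 stood at -5.73 there and was well above background on 1 of 4 arrays. At an unadjusted limma p under 0.05 none of the dendritic, monocyte or B cell lists had a gene lower in memory resting cells, and 7, 7 and 2 genes were higher. The part of such cells in the Irf8 difference was not tested.

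Under stimulation these markers moved in both directions. Of the 9 dendritic cell genes 2 rose and 1 fell in memory cells, with a sum of 5.37 to 7.87 in memory stimulated cells and 5.72 to 10.4 in memory resting cells. In naive cells 5 rose and 0 fell, with a sum of 5.07 to 9.87 in naive stimulated cells and 2.07 to 8.67 in naive resting cells, at most 2.83 without naive resting array 4. Of 5 B cell genes 0 rose and 4 fell in memory cells, and 0 rose and 1 fell in naive cells. Of the 9 T cell markers 2 rose and 5 fell in memory cells, and 2 rose and 6 fell in naive cells. Their sum was 351 to 431 in memory stimulated cells and 388 to 443 in memory resting cells. In naive cells it was 294 to 411 stimulated and 370 to 536 resting. The mean level of Cd8a was 3.83 against 5.21 at rest in memory cells, and 3.43 against 5.02 in naive cells. That of Cd3e was -0.23 against 0.58 at rest in memory cells, and -0.88 against 0.35 in naive cells.

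**Figure D2:**
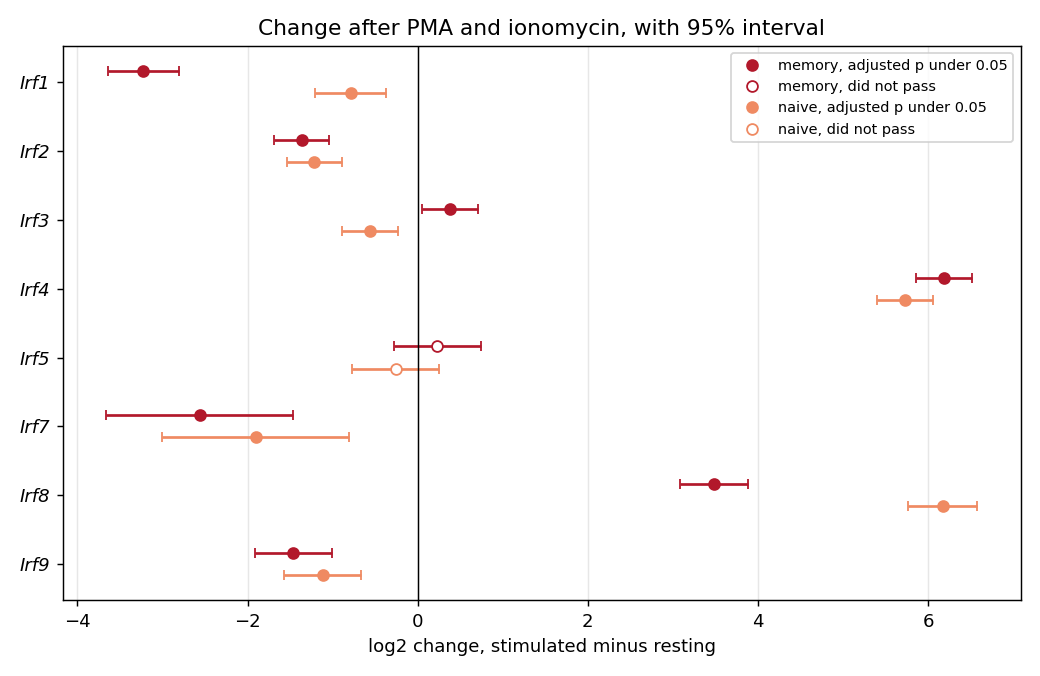
Change of each member after PMA and ionomycin (horizontal axis, log2, stimulated minus resting) in memory cells (upper point of each pair) and naive cells (lower point), with 95% intervals and filled points where the adjusted p was under 0.05. Irf8 rose more in naive cells, Irf1 fell more in memory cells, and Irf3 lies on opposite sides of 0, though its memory change turns below 0 with quantile normalization and in the authors' deposited table.

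Irf1 fell after stimulation, much more in memory than in naive cells. IRF1 is an activator that interferons induce and that drives genes of antigen processing. Its brighter probe (mm7 chr11:53733970-53734029) stood at 2.65, 2.59, 2.84 and 3.09 in memory stimulated cells, against 5.86, 6.08, 6.04 and 6.09 in memory resting cells. In naive stimulated cells it stood at 4.30, 4.90, 4.80 and 5.49, against 5.57, 5.82, 5.74 and 5.51 in naive resting cells. The memory groups lay far apart, while the highest naive stimulated array came just under the lowest naive resting one. The change was -3.22 ± 0.19 in memory cells (9.35-fold lower, adjusted p = 9.6e-10) and -0.79 ± 0.19 in naive cells (1.72-fold lower, adjusted p = 0.00218).

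The memory response of Irf1 was lower than the naive response by 2.44 units (-2.44 ± 0.28, adjusted p = 2.1e-05). At rest memory cells had 6.02 ± 0.11 and naive cells 5.66 ± 0.14 (SD, n = 4 each), a difference of 0.36 ± 0.19 that did not pass (adjusted p = 0.212) although the groups did not overlap. After stimulation memory cells had 2.79 ± 0.23 and naive cells 4.87 ± 0.49, a difference of -2.08 ± 0.19 or 4.23-fold lower (adjusted p = 2.47e-06). Only 177 of the 18411 genes reached a difference this low or lower. The size of the small naive fall depended on the scaling, since it was -1.27 with quantile normalization and -1.41 in the authors' deposited table after log2.

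Irf2, which competes with IRF1 for the same elements and mostly represses, fell in both cell types. Its probe (mm7 chr8:45625001-45625060) stood at -0.27, -0.33, 0.00 and -0.63 in memory stimulated cells, against 1.16, 0.96, 0.82 and 1.28 in memory resting cells. Naive stimulated cells had it at 0.03, -0.37, -0.48 and -0.34, against 1.10, 0.84, 0.79 and 0.97 in naive resting cells. All 8 stimulated arrays lay below all 8 resting arrays. The change was -1.36 ± 0.15 in memory cells (adjusted p = 1e-06) and -1.22 ± 0.15 in naive cells (adjusted p = 3.58e-06). The difference between the responses was -0.15 ± 0.22 with a 95% interval of -0.61 to 0.31 (adjusted p = 0.683). Memory and naive levels did not differ beyond their spread, by -0.02 ± 0.15 after stimulation (adjusted p = 0.947) and 0.13 ± 0.15 at rest (adjusted p = 0.595).

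Irf9 and Irf7, both themselves interferon-induced, fell after stimulation in both cell types. IRF9 is the DNA-binding subunit of the complex that type I interferon activates, and its brighter probe (mm7 chr14:50476767-50476826) stood at 2.04, 1.11, 1.0 and 1.18 in memory stimulated cells, against 3.13, 2.74, 2.86 and 2.45 in memory resting cells. In naive stimulated cells it stood at 1.52, 1.05, 0.99 and 1.29, against 2.54, 2.33, 2.30 and 2.15 in naive resting cells. Stimulated and resting arrays did not overlap in either cell type. The change was -1.46 ± 0.21 in memory cells (2.75-fold lower, adjusted p = 1.61e-05) and -1.12 ± 0.21 in naive cells (2.17-fold lower, adjusted p = 0.000227).

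Irf7, the amplifier of type I interferon production, gave the widest scatter of the family. It stood at -0.53, -2.71, -3.03 and -2.73 in memory stimulated cells, against 1.54, -0.04, 0.38 and -0.62 in memory resting cells. Naive stimulated cells had it at -2.35, -2.68, -2.57 and -2.70, against 0.19, -0.81, -0.87 and -1.21 in naive resting cells. The naive groups did not overlap, but memory stimulated array 1 lay just above the lowest memory resting array. The change was -2.56 ± 0.51 in memory cells (5.91-fold lower, adjusted p = 0.000373) and -1.90 ± 0.51 in naive cells (3.74-fold lower, adjusted p = 0.00397). Without memory stimulated array 1 the memory change was -3.14 (adjusted p = 8.34e-06). Under the planned normexp correction the naive change was -1.24 and its call was lost, with an adjusted p of 0.000133 to 0.064 over all settings run, and the memory change was -1.57.

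The array numbered 1 was the highest of its group for both Irf7 and Irf9 in all 4 groups. The mean log2 level of 21 antiviral genes was also highest on array 1 in 3 of the groups. It was -0.50 on memory stimulated array 1, against -1.73 to -1.54 on the other 3, and 1.94 on memory resting array 1, against 0.23 to 0.67 on the other 3. On naive resting array 1 it was 0.26, against -0.49 to -0.34 on the other 3, whereas naive stimulated array 1 had the lowest value of its group, -1.93, against -1.80 to -1.60. Arrays of 1 number held the same place on each slide, and the labels do not say whether they share a day of culture.

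Neither gene passed between the cell types in the fit without a replicate block, and at rest both calls depend on that choice. For Irf9 the difference was 0.12 ± 0.21 after stimulation (adjusted p = 0.719) and 0.46 ± 0.21 at rest (adjusted p = 0.134), with 2.80 ± 0.28 in memory and 2.33 ± 0.16 in naive resting cells. Leaving out memory stimulated array 1, which narrows the shared spread, brought the resting difference of Irf9 past the threshold (0.46, adjusted p = 0.045). For Irf7 the difference was 0.33 ± 0.51 after stimulation (adjusted p = 0.685) and 0.99 ± 0.51 at rest (adjusted p = 0.19), with 0.32 ± 0.92 in memory and -0.67 ± 0.60 in naive resting cells. The memory and naive responses did not differ beyond their spread, by -0.34 ± 0.30 for Irf9 (adjusted p = 0.46) and -0.66 ± 0.73 for Irf7 (adjusted p = 0.571).

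Markers of monocytes, macrophages or neutrophils moved with stimulation in the direction of Irf7 and Irf9. Of 13 such genes 9 fell and 0 rose in memory cells, with a summed level of 3.1 to 5.05 in memory stimulated cells and 14.8 to 22.6 in memory resting cells. In naive cells 8 fell and 1 rose, with a sum of 1.86 to 3.40 in naive stimulated cells and 8.69 to 14.5 in naive resting cells. The B cell sum was also lower after stimulation, at 0.18 to 0.25 against 1.32 to 1.58 in memory cells. In naive cells it was 0.21 to 0.39 against 1.61 to 2.16. A list for CD4 or regulatory T cells had 0.48 to 0.64 against 3.41 to 4.43 in memory cells. In naive cells that list had 0.41 to 0.54 against 2.56 to 3.29. The NK cell sum was higher after stimulation in both cell types. The part of any such cells in the falls of Irf7 and Irf9 was not tested.

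Irf3 changed little. IRF3 is present before any signal and is controlled mainly through phosphorylation. Its brighter probe (mm7 chr7:41178031-41178090) stood at 4.29, 4.55, 4.75 and 4.39 in memory stimulated cells, against 3.82, 4.19, 4.02 and 4.45 in memory resting cells. In naive stimulated cells it stood at 3.88, 4.22, 3.98 and 4.23, against 4.50, 4.60, 4.52 and 4.94 in naive resting cells. The memory groups overlapped, and the naive groups did not. The naive change was -0.56 ± 0.15 (1.48-fold lower, adjusted p = 0.00431). The memory change was 0.38 ± 0.15 (1.30-fold, adjusted p = 0.0394), but it turned to -0.21 with quantile normalization and to -0.22 in the authors' deposited table after log2, so its direction is not settled.

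The difference between the 2 responses of Irf3, 0.94 ± 0.22, passed (adjusted p = 0.0067). It was 0.29 and did not pass under the planned normexp correction, under which the naive fall was not called either, and its adjusted p was 0.00229 to 0.723 over all settings run. At rest memory cells had 4.12 ± 0.27 and naive cells 4.64 ± 0.20 (SD, n = 4 each), a difference of -0.52 ± 0.15 (adjusted p = 0.0247), and after stimulation they had 4.50 ± 0.20 and 4.08 ± 0.17, a difference of 0.42 ± 0.15 that did not pass (adjusted p = 0.0618). These calls sit at the threshold. The memory response was lost without memory resting array 1 (adjusted p = 0.130), 2 (0.053) or 3 (0.0905), and without memory stimulated array 2 (0.0806) or 3 (0.120). The resting difference was lost without memory resting array 1 (0.0856) or 3 (0.0641) and without naive resting array 2 (0.0508) or 4 (0.0714). The stimulated difference passed without naive resting array 4 (0.048) or memory resting array 4 (0.0439). The dimmer Irf3 probe (mm7 chr7:41173735-41173794) passed in no comparison, with changes of 0.18 ± 0.25 in memory and -0.15 ± 0.25 in naive cells.

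Irf5 was the member that was higher in memory cells after stimulation. IRF5 is a mediator of inflammatory cytokine genes, best known from macrophages, dendritic cells and B cells. Its probe (mm7 chr6:29469047-29469106) stood at -3.02, -3.07, -2.61 and -3.59 in memory stimulated cells, against -4.34, -4.36, -3.83 and -4.60 in naive stimulated cells. At rest it stood at -2.69, -3.67, -3.27 and -3.57 in memory cells, against -3.77, -4.33, -3.94 and -4.06 in naive cells. The memory and naive arrays did not overlap under either condition. The difference was 1.21 ± 0.24 after stimulation (2.31-fold, adjusted p = 0.00199) and 0.72 ± 0.24 at rest (1.65-fold, adjusted p = 0.0435). The stimulated difference was lost under the planned normexp correction (1.02) and was 0.52 with its repaired version, with an adjusted p of 0.000443 to 0.27 over all settings run.

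The resting call for Irf5 rests on single arrays. It was lost when any of 9 of the 16 arrays was left out, namely memory resting 1 or 3, naive resting 2, 3 or 4, memory stimulated 1 or 2, and naive stimulated 1 or 2, with adjusted p from 0.0504 to 0.145 and a difference of 0.52 to 0.75. Stimulation did not change Irf5 past the threshold, by 0.23 ± 0.24 in memory cells (adjusted p = 0.406, 95% interval -0.28 to 0.74) and -0.26 ± 0.24 in naive cells (adjusted p = 0.354, 95% interval -0.77 to 0.25). The memory change did pass with quantile normalization (0.56), in the authors' deposited table (0.38) and under the planned normexp correction (1.05), with an adjusted p of 0.0403 to 0.802 over all settings run. Beside the stimulated difference, 4 of 13 monocyte, macrophage or neutrophil genes were higher and 0 lower in memory cells, with a summed level of 3.1 to 5.05 in memory stimulated and 1.86 to 3.40 in naive stimulated cells. Of 9 dendritic cell genes 3 were higher and 1 lower, with a sum of 5.37 to 7.87 in memory stimulated and 5.07 to 9.87 in naive stimulated cells. All 5 NK cell genes were higher, with a sum of 41.3 to 65.7 in memory stimulated and 13.0 to 20.9 in naive stimulated cells. The largest parts of the memory stimulated sum were Nkg7 and Eomes, with mean levels of 5.55 and 2.38. Ncr1 (-5.47) and Klrb1b (-5.10) were each well above background on 3 of 4 memory stimulated arrays. The part of such cells in the Irf5 difference was not tested.

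**Figure D3:**
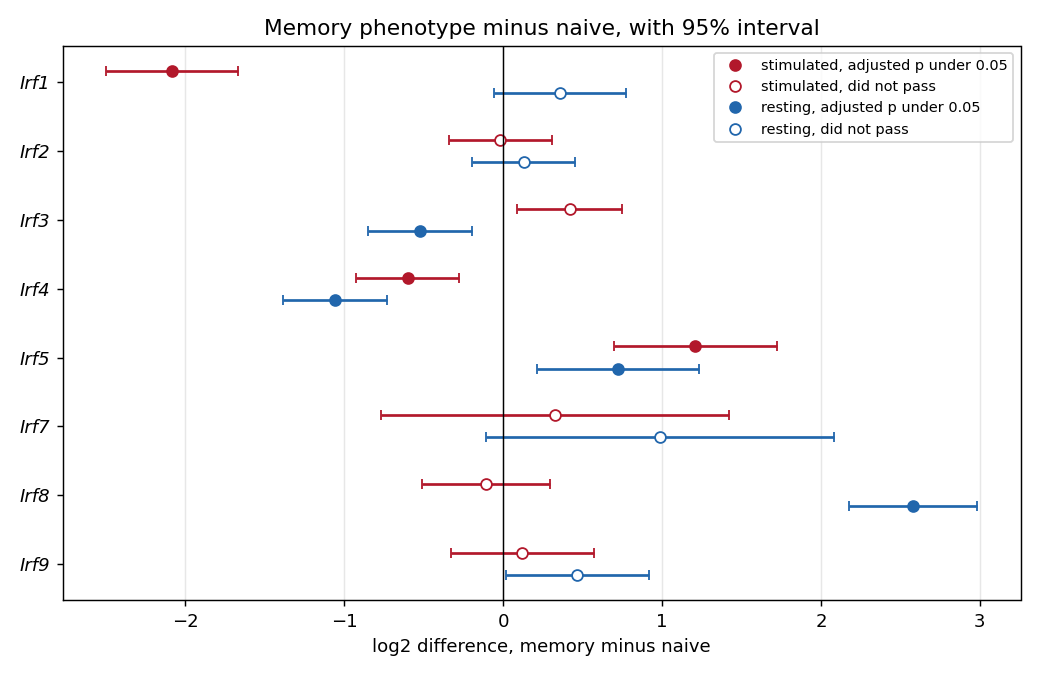
Memory minus naive difference of each member (horizontal axis, log2) after stimulation (upper point of each pair) and at rest (lower point), with 95% intervals and filled points where the adjusted p was under 0.05. Irf8 stands apart at rest and not after stimulation, Irf1 after stimulation and not past the threshold at rest, and Irf4 lies below 0 in both.

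The pairs of probes moved together for Irf1, Irf8 and Irf9. The dimmer Irf8 probe (mm7 chr8:119390963-119391022) changed by 3.30 ± 0.21 in memory cells and 6.28 ± 0.21 in naive cells, with a resting difference of 2.82 ± 0.21. The probe of Irf1 that crosses an intron changed by -3.36 ± 0.15 in memory cells and -1.31 ± 0.15 in naive cells, with a stimulated difference of -1.78 ± 0.15. Its naive stimulated arrays, at -0.59, -0.58, -0.37 and 0.06, lay clear of the naive resting arrays, at 0.93, 1.0, 0.99 and 0.84. The Irf9 probe that crosses an intron changed by -1.46 ± 0.26 in memory cells and -0.95 ± 0.26 in naive cells. With every probe tested on its own, 27361 in all, the brighter and dimmer probes of these 3 genes gave the same calls in the 4 comparisons of groups.

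**Figure D4:**
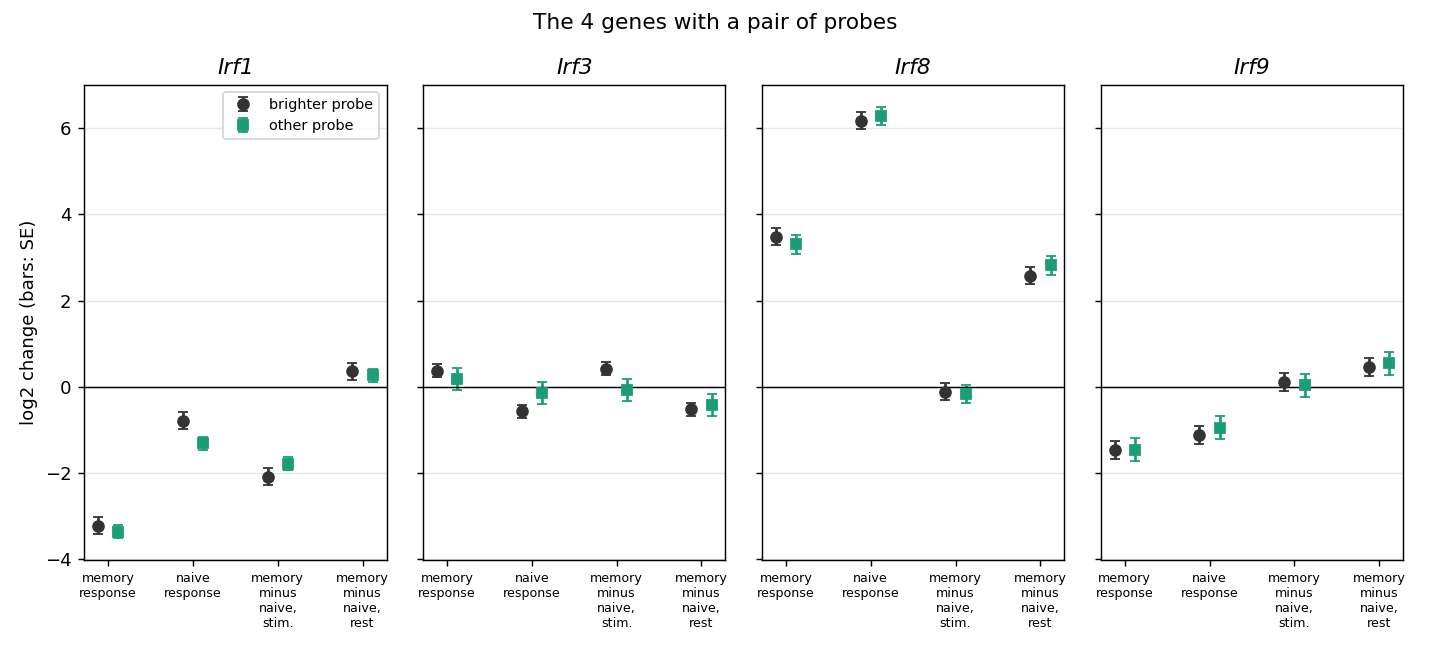
Change measured by each probe (vertical axis, log2, with SE bars) of the 4 genes with a pair of probes, in the memory response, the naive response and the memory minus naive differences after stimulation and at rest. The pairs lie together for Irf1, Irf8 and Irf9, and the dimmer Irf3 probe stays near 0.

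The genes around the family were read from lists. Of 9 interferon receptors and their kinases and inhibitors, 2 rose and 7 fell in memory cells (median -1.62), and 2 rose and 6 fell in naive cells (median -2.05). Ifngr2, the signalling chain of the interferon gamma receptor, fell by 3.64 in memory cells and fell by 4.43 in naive cells. Ifngr1, its ligand-binding chain, fell by 3.05 and fell by 3.79, and Ifnar1, a chain of the type I interferon receptor, fell by 2.61 and fell by 2.47. The genes that rose in both were Jak2, a kinase on the interferon gamma receptor (2.56 in memory and 2.27 in naive cells), and Socs1, an inhibitor of JAK kinases (1.41 and 2.24). Interferon gamma itself (Ifng) rose by 7.95 in memory cells and by 8.63 in naive cells. Ifna1 did not pass in either, and Ifnb1, Ifna2, Ifna4 and Ifnk did not pass the filter on dim probes.

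Of 21 antiviral genes known to be induced by interferon, 0 rose and 16 fell in memory cells (median -2.50), and 1 rose and 14 fell in naive cells (median -1.82). Oasl2, a relative of the oligoadenylate synthetases, fell by 4.07 in memory cells and fell by 3.39 in naive cells. Oas2, such a synthetase, changed by -4.04 in memory cells and by -3.21 in naive cells, and was well above background on 1 of 4 memory stimulated and 2 of 4 naive stimulated arrays. Rtp4, an interferon-induced transmembrane trafficking protein, fell by 3.93 and fell by 2.29, and Zbp1, a sensor of Z-form nucleic acid, fell by 3.6 in memory cells. Ifit3 and Ifit2, members of a family that binds viral RNA, fell by 3.39 and 2.94 in memory cells and fell by 3.36 and 3.96 in naive cells. Isg20, an exonuclease, was the gene that rose in naive cells (0.78 ± 0.33, adjusted p = 0.047). At rest 9 of the 21 were higher and 0 lower in memory than in naive cells (median 1.10), led by Mx1, a GTPase against influenza viruses, at 2.60 ± 0.55 (adjusted p = 0.0035). After stimulation 5 were higher and 0 lower (median 0.34). At an unadjusted limma p under 0.05 the counts of 0 stayed at 0, with 16 lower in the memory response, 15 higher at rest and 7 higher after stimulation.

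Of 11 antigen presentation genes linked to IRF1, 1 rose and 8 fell in memory cells (median -2.05), and 3 rose and 6 fell in naive cells (median -0.93). In memory cells the immunoproteasome subunits Psmb9 and Psmb10 fell by 2.57 and 2.35, the peptide transporter chain Tap2 by 2.47 and the GTPase Gbp2 by 2.17. In naive cells Psmb10, Tap2 and Psmb8 fell by 2.34, 2.27 and 1.98, and Gbp2 did not pass (-0.29 ± 0.31, adjusted p = 0.42). The memory response was lower than the naive one for 4 of the 11, and higher for 0. These were Gbp2 (-1.88 ± 0.43, adjusted p = 0.0067), Ciita (-1.34 ± 0.25, adjusted p = 0.0014), Tap1 (-1.15 ± 0.36, adjusted p = 0.037) and Psmb9 (-0.96 ± 0.31, adjusted p = 0.041). At an unadjusted limma p under 0.05 these were 5 and 0. Ciita is the master activator of MHC class II genes, and it rose in naive cells by 0.96. It was dim, at -5.52 in naive resting cells, where it was well above background on 2 of 4 arrays.

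Of 15 activators upstream of IRF3, IRF5 and IRF7, 4 rose and 5 fell in memory cells (median 0.08), and 3 rose and 5 fell in naive cells (median -0.18). The memory median turned to -0.13 with quantile normalization and to -0.15 in the authors' deposited table. Ikbke, a kinase that phosphorylates IRF3 and IRF7, fell by 4.66 in memory cells and fell by 4.90 in naive cells. Ddx58, the RNA sensor RIG-I, fell by 4.01 and fell by 2.70, and Tlr7, an endosomal RNA sensor, by 1.26 and fell by 1.22. Tank, an adaptor of these kinases, rose by 1.14 and by 0.54. Tbk1, the other kinase of IRF3, and the adaptors Mavs and Myd88 did not pass in either cell type.

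Of 13 partner factors, 6 rose and 6 fell in memory cells (median 0.35), and 5 rose and 4 fell in naive cells (median 0.40). Stat2, a partner of IRF9, fell by 2.21 in memory cells and fell by 1.57 in naive cells. Ikzf3, the zinc finger factor Aiolos, rose by 2.23 in memory cells and by 2.45 in naive cells, and Ets1, an activator in resting lymphocytes, fell by 2.79 and by 2.37. Batf, which recruits IRF4 in T cells, rose in memory cells (0.87 ± 0.33, adjusted p = 0.030) and did not pass in naive cells (0.57 ± 0.33, adjusted p = 0.14). Spi1 and Spib, the partners of IRF4 and IRF8 in myeloid and B cells, did not pass the filter on dim probes.

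Of 18 T cell genes linked to IRF4 and BATF, 12 rose and 4 fell in memory cells (median 1.6), and 13 rose and 3 fell in naive cells (median 1.32). Il2ra, the interleukin-2 receptor alpha chain, rose by 6.06 in memory cells and by 5.79 in naive cells. Zbtb32, a zinc finger repressor, rose by 6.95 in memory cells and was at least 216-fold higher in naive stimulated than in naive resting cells, where it was on no array well above background. Il17a was at least 118-fold higher in memory stimulated than in memory resting cells, where it was likewise on no array well above background. Myc, a driver of growth, rose by 5.98 in memory cells and by 4.68 in naive cells. Tbx21, the effector factor T-bet, rose by 6.13 in naive cells and did not pass in memory cells (0.17 ± 0.20, adjusted p = 0.45). The change of Tbx21 differed between the cell types by -5.96 ± 0.28 (adjusted p = 2.1e-09), with a resting difference of 4.05 and a stimulated difference of -1.90.

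**Figure D5:**
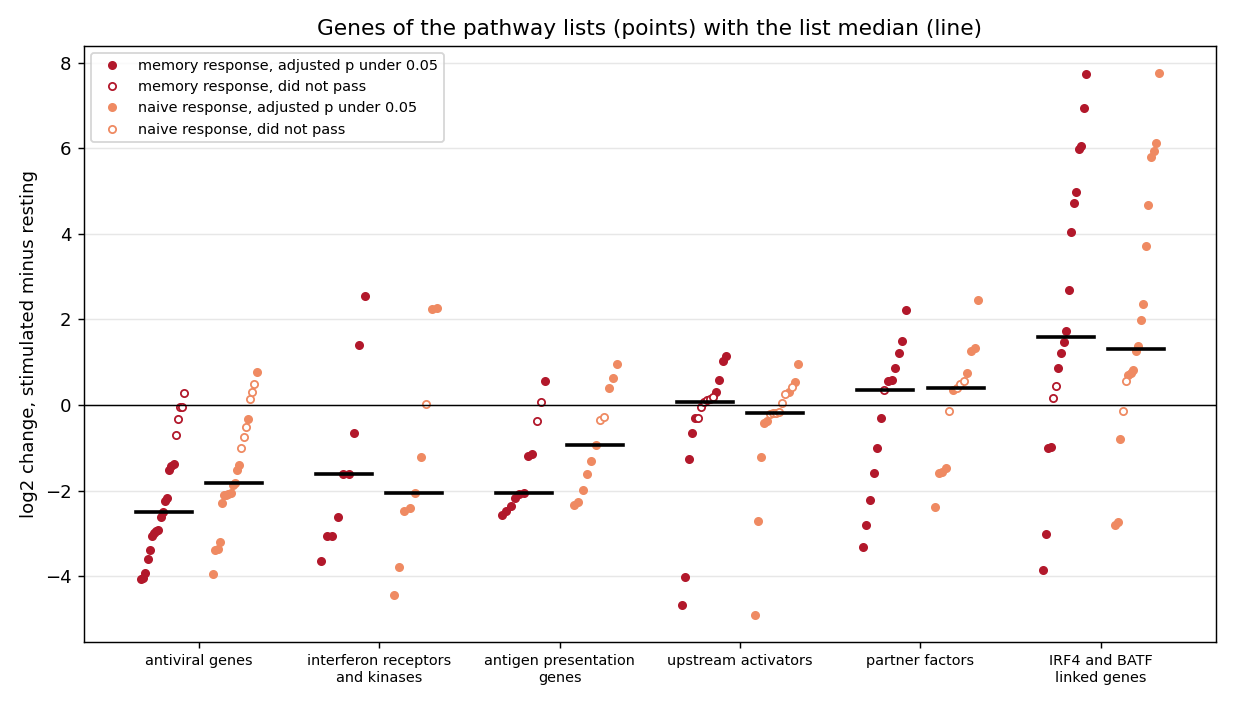
Change after PMA and ionomycin (vertical axis, log2, stimulated minus resting) of each tested gene of 6 lists, in memory cells (left cloud of each pair) and naive cells (right cloud), with the list median as a line and filled points where the adjusted p was under 0.05. Most antiviral, receptor and antigen presentation genes lie below 0, and most genes linked to IRF4 and BATF lie above it.

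Among the genes of IRF2-binding proteins, Irf2bpl fell by 1.99 in memory cells and fell by 1.49 in naive cells. Irf2bp1 rose by 0.34 in memory cells and did not pass in naive cells, and Irf2bp2 passed in neither.

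The genes whose level over the 16 arrays was most like that of a member are given as a description, since arrays of a group share their treatment and slide. For Irf4 the nearest was Spred1, an inhibitor of the Ras pathway, at a Pearson r of 0.997. For Irf8 they were Spin4 (r = 0.988) and the interleukin-15 receptor alpha chain Il15ra (r = 0.982). For Irf7 they were Trim30d (r = 0.980), Dhx58 (r = 0.979) and Fbxo39 (r = 0.978), and for Irf9 Fbxo39 (r = 0.989), Parp9 (r = 0.986) and Pml (r = 0.982). Irf7 and Irf9 had an r of 0.972 with each other. For Irf1 they were Plekha7 (r = 0.976) and Trpv2 (r = 0.975), for Irf2 Neu3 (r = 0.984) and Fbh1 (r = 0.982), for Irf3 Cep63 (r = 0.932), Hdgfl2 (r = 0.920) and Sugp1 (r = 0.907), and for Irf5 Cd93 (r = 0.912), Setbp1 (r = 0.908) and Gpx8 (r = 0.893). Transcripts that carry only a clone or cluster name took the other places among the nearest 3 of Irf1, Irf2, Irf4 and Irf8.

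Over the whole series, 59.3% to 66.5% of spots per array were well above background, and the 75th percentile was 506 to 679 intensity units. Arrays of a group correlated at 0.978 to 0.995 over all genes tested. Cd44, the sort marker, was 4.05 higher in memory than in naive resting cells, and the activation marker Cd69 rose by 3.46 in memory cells and by 2.87 in naive cells. The 4 arrays per group limit the precision. The split of calls depended on the background correction. Of the genes that passed, 42.6% were higher in the memory response and 65.0% in the resting difference, against 53.0% and 48.0% with the normexp correction that was added after seeing the data. With that correction 45.0% of the calls for the difference between responses were higher, against 28.8%, and with quantile normalization 40.7%.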

How the data were processed

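RNA was measured on 16 one-colour Agilent arrays, 4 per group. The deposited intensity of each spot (processed Cy3 signal) was made by the authors with Agilent Feature Extraction 9.5.3.1, per the file headers, with background subtraction, detrending and a positive surrogate near background, and it is not normalized between arrays. Other deposited columns are flags and probe classes. Here log2 was taken and each array's 75th percentile over non-control, non-outlier spots (59 to 116 outliers of 43379 spots per array) subtracted. A saturated spot was kept. Replicate spots of a probe were averaged, and a probe was tested where well above background on at least 3 of 4 arrays of at least 1 group (27361 probes, 18411 genes, 6042 of them with several tested probes and represented by that with the highest mean). Probes got symbols from a RefSeq table through accession (22951), symbol (6659) or synonym (3109), and 8455 kept the files' name.

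One mean per group was fitted with limma 3.58.1 (lmFit, eBayes) in R 4.3.3 with the data.table package (version 1.17.8), with two-sided tests and Benjamini-Hochberg adjustment over all genes. The files were read with pandas 2.3.3 and numpy 2.4.6 in Python 3.11.15, and plots were drawn with matplotlib 3.10.9. The code was tested on simulated arrays. Changes of a probe on no array of a group well above background are bounds: the bright group's mean against whichever is greater on each array, the dim probe's own signal or the lowest signal that is well above background. From each gene list up to 4 genes with the largest change past the threshold were named, plus those needed to explain a count, and some genes of the lists are not reported here. Members and lists were chosen with earlier results of these data known. All members and all their probes are described. Genes with the nearest pattern are the 3 with the highest Pearson r.

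Alternatives were quantile normalization, normexp correction (offset 50), the authors' deposited value table, no filter and a stricter one, each probe alone, the mean of probes, a replicate block, only the groups compared, and each array left out. A normexp fit without spots whose local background exceeded the spot by over 100 intensity units was added after seeing the data. The deposited values (33797 rows, linear intensity, median 149 and lowest value 30 on every array) was matched by feature number, correlated at 0.975 to 0.984 with the same array's log2 signal, and has a normalization not given in the sources used here.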

Additional observations from a re-analysis of the deposited data

Results flagged for a closer look

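Irf7 on memory stimulated array 1, at -0.53, stood apart from the other 3 arrays of its group, which lay between -3.03 and -2.71. Its gap to the nearest was 0.873 of the group's whole range. This was 1 array among 32 groups of 4 examined, and chance alone marks about 1 group in 20. The memory response of Irf7 was -2.56 with this array and -3.14 without it.

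The change after stimulation differed between memory and naive cells by the test of the difference itself for 3 members. It was -2.69 for Irf8, -2.44 for Irf1 and 0.94 for Irf3 (memory response minus naive response, log2). Irf8 and Irf1 passed under all settings run, whereas Irf3 was 0.29 and did not pass under the planned normexp correction (adjusted p 0.00229 to 0.723 over all settings run).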

How the results depend on the processing

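Of the log2 changes of single members under another setting, 980 kept their side of the threshold, 37 were no longer past it, 12 were newly past it and 3 reversed. Some of the 980 that did not pass changed sign between settings, such as Irf5 in the naive response (-0.41 to 0.32). Irf7 after stimulation, memory minus naive, likewise ran from -0.25 to 0.59. Irf4 and Irf8 in both responses, Irf1 and Irf9 in both responses and Irf2 in both responses passed under all settings run, with Irf4 from 5.35 to 6.30 in memory and 5.36 to 5.86 in naive cells and Irf8 from 2.91 to 3.63 and 5.70 to 6.26. The memory response of Irf3 reversed with quantile normalization (-0.2077), normexp correction (-0.1330) and the authors' deposited table (-0.2245), and the cause was not tested. The planned normexp correction compressed 3 arrays (SD of log2 values 1.12 to 1.66, against 2.33 to 2.48 on the others). It called 6616, 520, 452 and 213 of all genes in the naive response, at rest, after stimulation and in the difference of responses, against 12664, 3939, 4443 and 3669. With it the members lower in the naive response were 3, those higher and lower at rest 1 and 0, those higher and lower after stimulation 0 and 1, and those with a higher difference of responses 0, against 5, 2, 2, 1, 2 and 1. Besides the memory response of Irf3, the calls lost were Irf3 and Irf7 in the naive response, Irf3, Irf4 and Irf5 at rest, Irf4 and Irf5 after stimulation, and Irf3 in the difference of responses. At an unadjusted limma p under 0.05 that fit had 1 member lower at rest, 1 higher after stimulation and 0 with a higher difference of responses. With the repaired normexp fit, chosen after seeing the data, and in the authors' table, 1 member was higher and 1 lower at rest and 2 were higher after stimulation. Quantile normalization gave 1 higher at rest and 2 higher after stimulation, no filter 1 higher at rest, and the 2 groups compared alone 1 higher and 1 lower at rest. The resting call of Irf5 was among those lost, with adjusted p = 0.134 under quantile normalization and 0.128 in the authors' table. Leaving out an array gave 2 to 3 higher in the memory response, 1 to 2 higher and 1 to 2 lower at rest, and 1 to 2 higher after stimulation. Same-numbered arrays of different groups deviated together with r over 0.1 in 16 of 24 pairs (-0.21 to 0.585, median 0.16). Differently numbered arrays did so in 13 of 72 pairs (median -0.07). Arrays of 1 number were thus more alike than others. The labels do not tie the numbers to the occasions of culture, so the main fit left the arrays unpaired. With a replicate block 4 members were higher at rest, as Irf7 (adjusted p = 0.0311) and Irf9 (0.028) joined, and 2 after stimulation, as Irf3 joined (0.0218), and the other counts of members were the same. Slide as a block was not run, since each group lies on its own slide. Depth in these arrays is signal over background. All members were well above background on all arrays, but Irf5 was dim, at 20.9 to 104 intensity units.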
